A study of Mus musculus with 22 samples.

Results

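Interferon-stimulated genes are the genes that a cell switches on when it senses an interferon, and 41 of them, listed by name, were followed through 8 days of muscle repair. A gene of the list entered when the array had a probe set that the platform's gene table assigns to that gene alone. This gave 38 of the 41 listed genes, among 19938 genes measured in all, and each of the 38 had 1 probe set. Isg15, Gbp2 and Ifi44 were not analysed here. No filter on low values was applied, so all 38 were tested in every comparison.

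The cells came from C57B6/J mice whose tibialis anterior, a muscle of the lower leg, had been injured by an injection of cardiotoxin, a venom protein used to destroy muscle fibres. CD45+ (leukocyte) cells were taken from the muscle with magnetic beads and sorted by antibodies to Gr1 and Cx3cr1, which the labels also describe as a sort by Ly6C and a macrophage antigen. The sort gave Gr1+/Cx3cr1low cells, called Gr1-positive here, and Gr1-/Cx3cr1high cells, called Gr1-negative, at days 1, 2, 4 and 8 after injury. Of the 8 groups, 7 had 3 arrays, labelled as biological replicates, and day 8 of the Gr1-positive subset had a single array. There was no uninjured muscle and no blood monocyte group among the 22 arrays. The RNA is that of a sorted population, so fewer cells of a type and less RNA per cell cannot be told apart. A list of 9 genes of leukocytes and macrophages was high in all groups, with a group mean between 11.960 and 12.109 on the log2 scale.

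Interferons act through receptors at the cell surface. Type I interferons, the interferon alpha proteins and interferon beta, bind Ifnar1 and Ifnar2. The kinases bound to these receptors activate a complex that holds Stat2 and Irf9 and binds a DNA element called ISRE, the interferon-stimulated response element. Interferon gamma, made mainly by T and NK cells, binds Ifngr1 and Ifngr2 and acts through another DNA element, GAS. Many genes answer to both signals. Their products detect foreign nucleic acid, block viral replication, load peptides for T cells and attract lymphocytes, and Irf7 and Stat2 raise the response further. Macrophages are strong responders to both kinds of interferon.

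The promoters of these genes are shown first, because the ISRE is the sequence by which the list is known. RefSeq windows of 250 bases before to 50 bases after the start of the gene (GRCm38.p6) were at hand for 28 of the 38 genes. The core of the ISRE, GAAA, 2 free bases and GAAA on either strand, was found in a window of 12 of these 28 genes, or 42.9%. It was found in a window of 3.818% of 15586 other measured genes, and in 3.443% of all 32851 windows. The core of GAS, TTCNNNGAA, was found in a window of 5 of the 28 genes (17.9%). The share was 8.97% of the other measured genes and 8.298% of all windows. The windows that held the ISRE core belong to Stat2, Ifih1, Ddx58, Eif2ak2, Oas1a, Oas3, Ifit1, Ifit3, Rsad2, Trim30a, Gbp3 and Cxcl10. A match is a description of the letters and not a site that was tested in these cells. Stretches of 6 of these promoters follow, each read 5′ to 3′ along the strand of its gene, with the ISRE core in capitals. The first 4 belong to genes that rose in both subsets between day 2 and day 4, and the last 2 to genes that did not pass the test there.
Stat2, chr10:128270248-128270325, plus strand: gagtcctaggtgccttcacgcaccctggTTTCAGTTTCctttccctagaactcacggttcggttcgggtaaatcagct
Ifit3, chr19:34583333-34583456, plus strand: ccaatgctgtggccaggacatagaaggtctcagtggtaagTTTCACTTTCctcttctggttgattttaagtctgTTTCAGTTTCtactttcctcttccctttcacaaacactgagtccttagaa
Gbp3, chr3:142559959-142560043, plus strand: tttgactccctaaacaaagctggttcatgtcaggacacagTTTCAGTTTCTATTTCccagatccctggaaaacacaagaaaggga
Oas3, chr5:120777685-120777774, minus strand: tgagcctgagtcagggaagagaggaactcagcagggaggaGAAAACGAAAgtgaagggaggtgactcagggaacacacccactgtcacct
Ifit1, chr19:34640745-34640853, plus strand: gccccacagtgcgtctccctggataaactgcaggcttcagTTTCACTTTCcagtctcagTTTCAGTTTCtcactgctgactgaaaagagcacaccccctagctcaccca
Rsad2, chr12:26456523-26456612, minus strand: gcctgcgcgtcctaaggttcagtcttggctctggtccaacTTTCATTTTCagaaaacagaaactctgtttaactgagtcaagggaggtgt
Ifit3 and Ifit1 each carry the core at 2 places, and in Gbp3 the 2 matches overlap into a single run.

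Taken as a group, the 38 genes were highest at day 4 in both subsets and had their lowest mean at day 2, which in Gr1-positive cells rests on 1 low array. The mean of the 38 log2 signals was computed for each array. In Gr1-negative cells the mean over arrays was 9.832 ± 0.42 (SD, n = 3) at day 1, 9.547 ± 0.349 at day 2, 10.536 ± 0.116 at day 4 and 10.147 ± 0.15 at day 8. In Gr1-positive cells it was 10.02 ± 0.248 (SD, n = 3) at day 1, 9.845 ± 0.5 at day 2 and 10.661 ± 0.075 at day 4, and the single array of day 8 read 10.191. All arrays of day 4 lay above all arrays of the other days in both subsets. The arrays of days 1 and 2 were spread more widely. The arrays numbered 1 were the lowest of their group there, with 9.153 in the Gr1-negative and 9.267 in the Gr1-positive cells of day 2. The other 2 Gr1-positive arrays of day 2 read 10.14 and 10.127, and without the low one the median difference of the 38 genes from day 1 to 2 was 0.089 in place of -0.201. The 2 arrays numbered 1 of day 2 therefore bear on every comparison with that day.

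**Figure D1:**
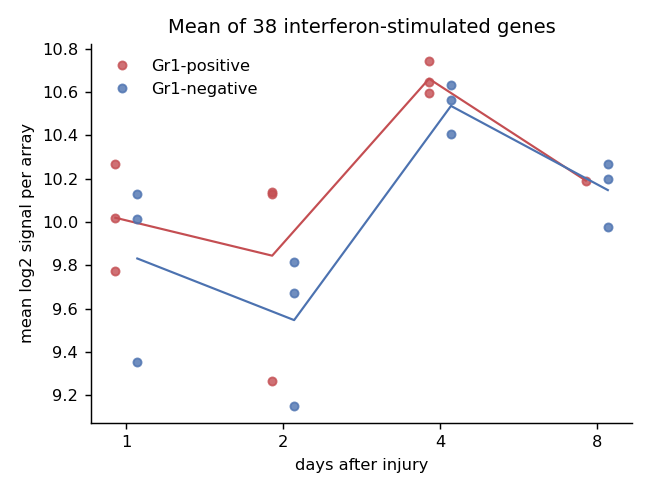
Mean log2 signal of the 38 interferon-stimulated genes on each array (y axis) against days after injury (x axis), with 1 point per array and lines through the group means. The day 4 arrays lie between 10.408 and 10.742, above the arrays of days 1, 2 and 8 in both subsets. The lowest points are 1 array of each subset at day 2 (9.153 and 9.267) and 1 Gr1-negative array of day 1 (9.352).

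Gene by gene, the day of the highest group mean was day 4 for 31 of the 38 genes in Gr1-negative cells, against 22.1% of all genes. The 6 genes that were highest at day 8 were Cxcl9, Cxcl10, Ifih1, Oasl1, Ifit1 and Rsad2, and Ifi35 was highest at day 1. Day 2 held the lowest mean for 26 of the 38, against 13.5% of all genes. Among days 1, 2 and 4 of the Gr1-positive cells, 36 of the 38 were highest at day 4 (33.6% of all genes) and 29 were lowest at day 2 (14.9% of all genes). The latter count includes the low day 2 array numbered 1, without which the median difference from day 1 to 2 was 0.089 in place of -0.201.

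Between day 2 and day 4 in Gr1-negative cells, 27 of the 38 genes rose and none fell at an adjusted p under 0.05 (limma, Benjamini-Hochberg over 19938 genes). Of all genes tested, 8.15% rose and 6.69% fell in this comparison. The median difference of the 38 genes was 0.933 on the log2 scale, with a range of -0.044 to 2.486, and the median of all genes was -0.07. The 3 arrays of day 4 were all above the 3 arrays of day 2 for 32 of the 38 genes, against 15.4% of all genes. In Gr1-positive cells 20 of the 38 rose and none fell, where 11.8% of all genes rose and 7.44% fell. The median there was 0.745 (range -0.098 to 2.304), the median of all genes was -0.057, and for 30 genes the groups did not overlap (17% of all genes, counting those higher at day 4). The 20 genes were all among the 27, which is 100% of the shorter and 74.1% of the longer list. For all genes, the risers shared by both subsets were 52.3% of the Gr1-positive and 75.8% of the Gr1-negative risers. Arrays of the same day and number deviated together in both subsets, so the lists of the subsets are not independent. Without the Gr1-positive array of day 2 numbered 1, the count in Gr1-positive cells was 11, and without both day 2 arrays numbered 1 it was 13.

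**Figure D2:**
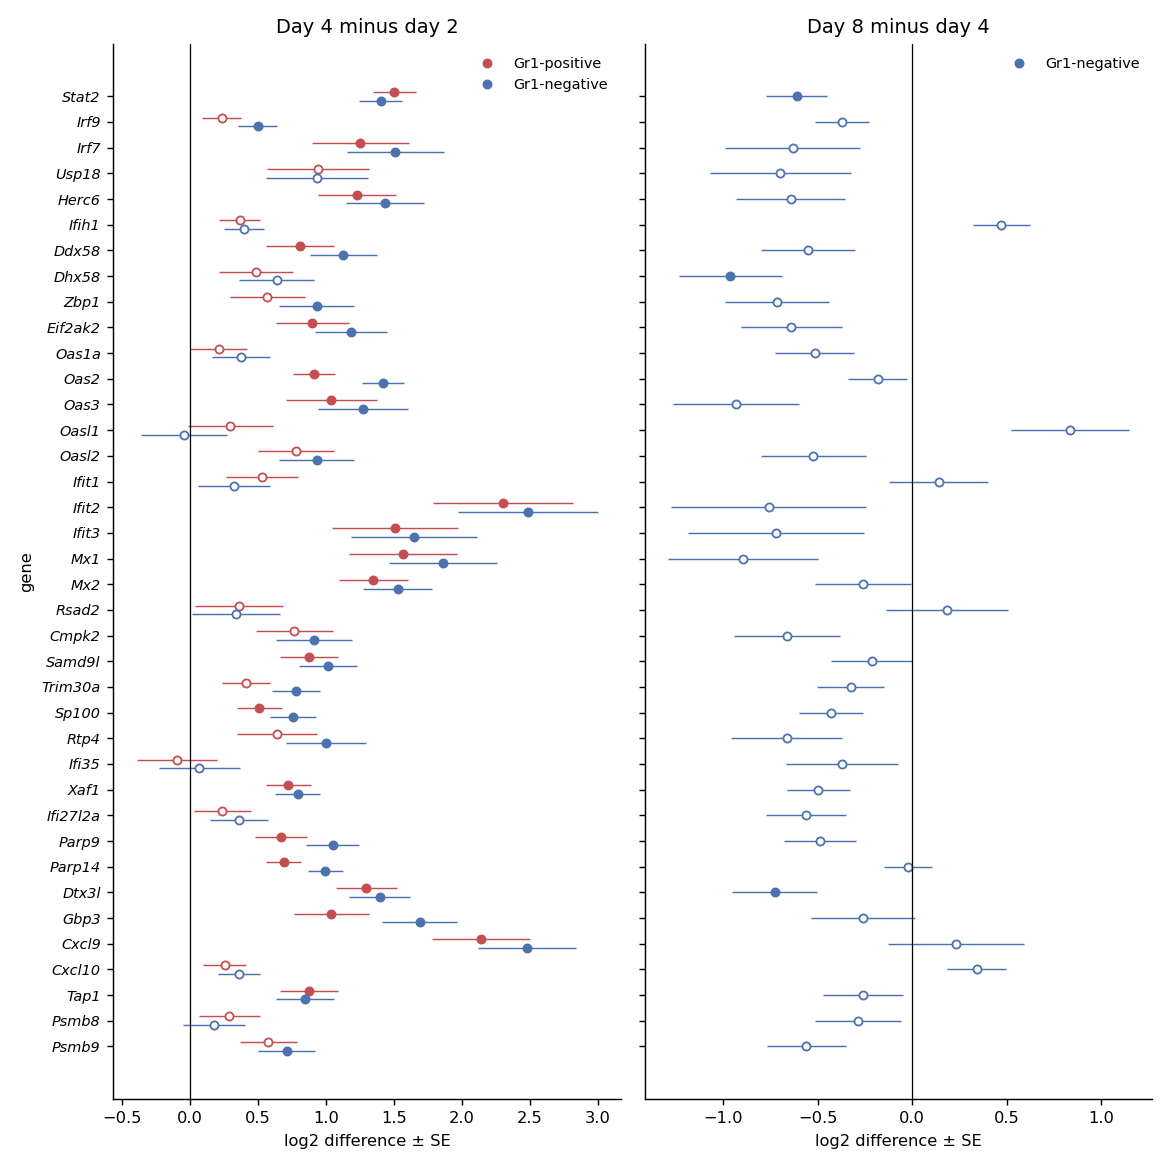
Difference from day 2 to day 4 in both subsets (left panel) and from day 4 to day 8 in Gr1-negative cells (right panel) for each of the 38 genes. The x axis gives the log2 difference ± SE and the y axis the genes, with filled points for genes at an adjusted p under 0.05. In the left panel 27 Gr1-negative and 20 Gr1-positive points are filled, and Ifit2 and Cxcl9 lie farthest to the right in both subsets. In the right panel 3 points are filled.

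Of the 3 signal factors, all rose in Gr1-negative cells and Stat2 and Irf7 also rose in Gr1-positive cells from day 2 to 4. Stat2, the partner of Irf9 in the complex that binds the ISRE, had Gr1-negative log2 signals of 9.01, 9.38 and 9.75 at day 1, 8.82, 9.01 and 9.08 at day 2, 10.38, 10.28 and 10.46 at day 4 and 9.93, 9.73 and 9.62 at day 8. The Gr1-positive arrays read 9.28, 9.48 and 9.5 at day 1, 8.76, 9.40 and 9.20 at day 2, 10.67, 10.55 and 10.65 at day 4 and 10.04 at day 8. Day 4 stood above every other day with no overlap in either subset. From day 2 to 4, Stat2 rose by 1.40 ± 0.16 (SE) in Gr1-negative cells (2.64-fold, limma adjusted p = 1.53e-05) and by 1.503 ± 0.16 in Gr1-positive cells (2.83-fold, limma adjusted p = 5.81e-06).

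Irf7, the factor that amplifies type I interferon production, read 9.41, 10.34 and 10.73 at day 2 and 11.35, 11.80 and 11.86 at day 4 in Gr1-negative cells. The day 1 arrays read 10.35, 11.22 and 11.11 and those of day 8 read 11.15, 11.31 and 10.65. In Gr1-positive cells the arrays were 10.84, 11.64 and 10.95 at day 1, 9.94, 11.28 and 11.33 at day 2, 11.91, 12.24 and 12.15 at day 4 and 11.30 at day 8. The arrays of days 2 and 4 did not overlap in either subset, and the lowest reading in each was the day 2 array numbered 1. The rise was 1.51 ± 0.36 in Gr1-negative cells (limma adjusted p = 0.00629) and 1.25 ± 0.36 in Gr1-positive cells (limma adjusted p = 0.0169). In the Gr1-positive cells the call did not hold when 1 array was left out: the adjusted p was 0.111 without the day 2 array numbered 1, 0.0564 without the day 4 array numbered 2 and 0.0522 without that numbered 3.

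Irf9, the DNA-binding part of the same complex, moved less. Its Gr1-negative signals were 10.16, 10.36 and 10.55 at day 1, 9.83, 10.22 and 10.18 at day 2, 10.46, 10.54 and 10.73 at day 4 and 10.33, 10.12 and 10.17 at day 8. The Gr1-positive signals were 10.49, 10.68 and 10.31 at day 1, 10.08, 10.58 and 10.57 at day 2, 10.53, 10.71 and 10.69 at day 4 and 10.35 at day 8. Irf9 rose by 0.50 ± 0.14 from day 2 to 4 in Gr1-negative cells (limma adjusted p = 0.0237), and the adjusted p was 0.134 without the day 2 array numbered 1 and 0.114 without the day 4 array numbered 3. In Gr1-positive cells the difference was 0.23 ± 0.14 (limma adjusted p = 0.292), and the arrays of both days overlapped.

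**Figure D3:**
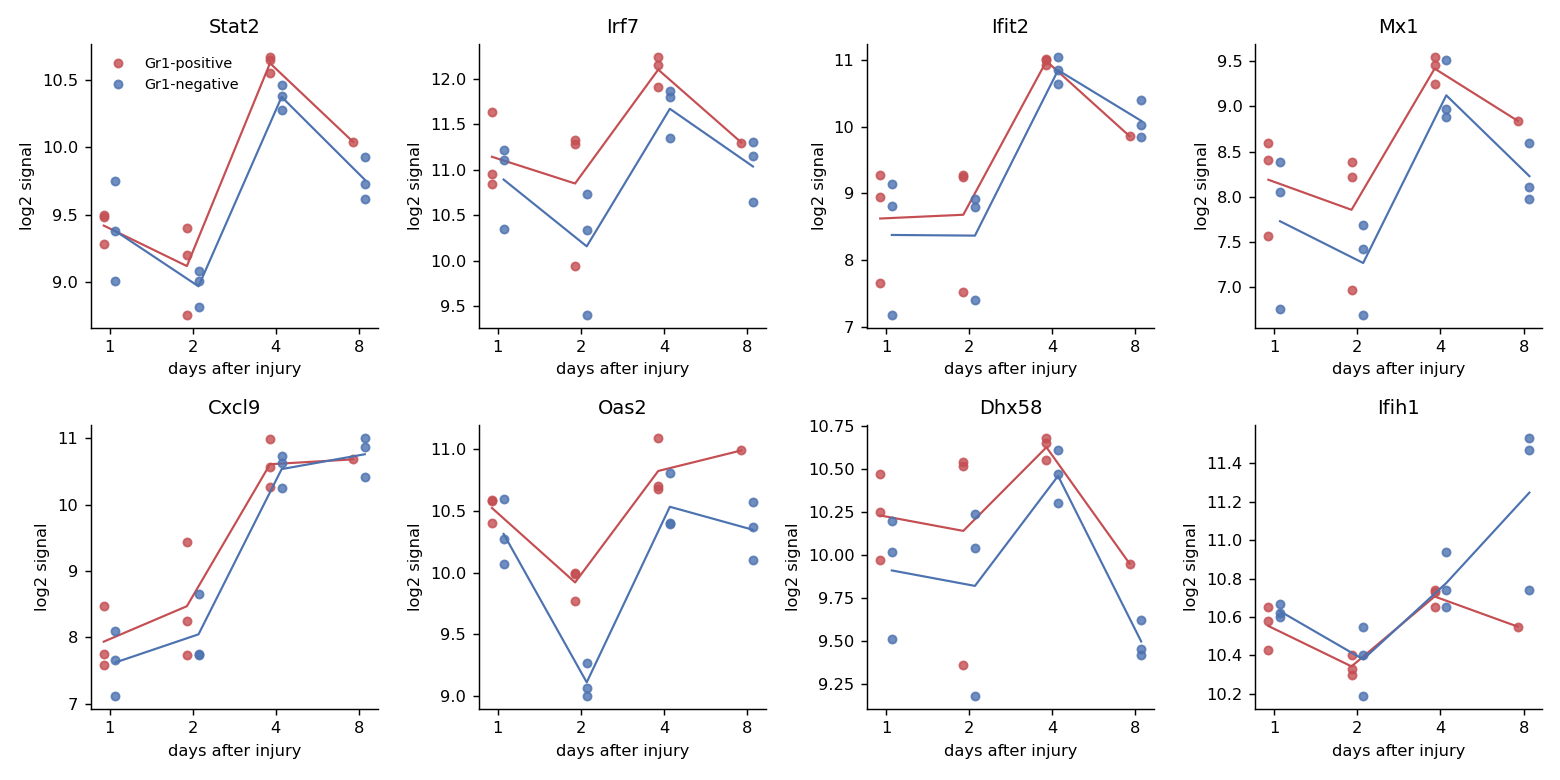
Log2 signal per array (y axis) against days after injury (x axis) for 8 genes, 1 panel per gene, with 1 point per array and lines through the group means of each subset. Stat2, Irf7, Ifit2, Mx1 and Cxcl9 are highest or near their highest at day 4, Oas2 dips at day 2, and Ifih1 in Gr1-negative cells has its highest arrays at day 8 (11.47 and 11.53).

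The largest differences belonged to Ifit2 and Cxcl9. Ifit2, a member of the IFIT family that binds viral RNA and limits its translation, had Gr1-negative signals of 7.40, 8.79 and 8.91 at day 2 and 10.85, 10.65 and 11.05 at day 4, against 7.18, 8.81 and 9.14 at day 1. Its Gr1-positive signals went from 7.52, 9.25 and 9.27 at day 2 to 11.02, 10.93 and 11.01 at day 4. The lowest Ifit2 reading of every group at days 1 and 2 was the array numbered 1, and even the highest of those groups lay more than 1 log2 unit below day 4. Ifit2 rose 5.60-fold in Gr1-negative cells (2.49 ± 0.51, limma adjusted p = 0.00237) and 4.94-fold in Gr1-positive cells (2.304 ± 0.51, limma adjusted p = 0.0033). Ifit3, of the same family, rose in both subsets (1.65 and 1.51), while Ifit1 differed by 0.32 ± 0.26 and 0.53 ± 0.26 and did not pass in either. The probe sets of Ifit3 and of Oas1a can also pick up near-identical neighbours (Ifit3b, Oas1g), as those of Trim30a and Gbp3 can within their families.

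Cxcl9 is a chemokine that draws in activated T and NK cells through the receptor Cxcr3, and it is best known as a target of interferon gamma. In Gr1-negative cells it read 7.12, 8.09 and 7.66 at day 1, 7.74, 8.65 and 7.75 at day 2, 10.73, 10.62 and 10.25 at day 4 and 11, 10.41 and 10.86 at day 8. In Gr1-positive cells the readings were 7.58, 8.48 and 7.75 at day 1, 7.74, 9.43 and 8.24 at day 2, 10.99, 10.56 and 10.27 at day 4 and 10.68 at day 8. All arrays of days 4 and 8 were above all arrays of days 1 and 2. From day 2 to 4 it rose 5.58-fold in Gr1-negative cells (2.48 ± 0.36, limma adjusted p = 0.00013) and 4.40-fold in Gr1-positive cells (2.14 ± 0.36, limma adjusted p = 0.000343). Cxcl10, a chemokine for the same receptor, was between 11.53 and 12.73 on all 22 arrays and passed the test in neither subset (0.36 ± 0.16 and 0.26 ± 0.16).

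Mx1, a GTPase that blocks influenza-type viruses, completed the 3 largest rises in each subset. Its Gr1-negative signals were 6.69, 7.42 and 7.68 at day 2 and 8.88, 8.97 and 9.52 at day 4, and its Gr1-positive signals were 6.96, 8.38 and 8.22 at day 2 and 9.25, 9.46 and 9.55 at day 4. The groups did not overlap. The rise was 1.86 ± 0.40 in Gr1-negative cells (limma adjusted p = 0.00301) and 1.57 ± 0.40 in Gr1-positive cells (limma adjusted p = 0.00823). Without the Gr1-positive day 2 array numbered 1 the latter was 1.119, with an adjusted p of 0.0551. Many laboratory mouse strains carry an Mx1 gene that makes no working protein, and the array reads only its RNA.

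By role, the 3 genes of the ADP-ribosylation group rose in both subsets. Parp14 attaches ADP-ribose to other proteins, and Dtx3l is the ubiquitin ligase that works with Parp9. The differences of Parp9, Parp14 and Dtx3l were 1.05, 0.99 and 1.39 in Gr1-negative cells and 0.67, 0.69 and 1.30 in Gr1-positive cells. Of the 5 genes of the oligoadenylate synthetase family, whose active enzymes make the signal for RNA cleavage, 3 rose in Gr1-negative cells (Oas2, Oas3 and Oasl2) and 2 in Gr1-positive cells (Oas2 and Oas3). Of the 5 genes for sensors of nucleic acid and PKR, 3 rose in Gr1-negative cells, namely Ddx58 (RIG-I), Zbp1 and Eif2ak2 (PKR), and 2 in Gr1-positive cells, Ddx58 and Eif2ak2. Of the 11 other antiviral effectors, 8 rose in the Gr1-negative subset and 5 rose in the Gr1-positive, the latter being Mx1, Mx2, Samd9l, Xaf1 and Sp100. Gbp3, a guanylate-binding protein that attacks the membranes around microbes inside the cell, rose by 1.69 ± 0.28 and 1.04 ± 0.28. The latter was 0.674 without the Gr1-positive day 2 array numbered 1, with an adjusted p of 0.0743. Of the ISG15 system, Herc6, the ligase that attaches the Isg15 protein, rose in both (1.43 and 1.23), while Usp18, the enzyme that removes it and that damps the receptor, differed by 0.94 ± 0.38 in each and did not pass. Of the antigen processing genes, the peptide transporter gene Tap1 rose in both and the immunoproteasome gene Psmb9 in Gr1-negative cells, where it differed by 0.71 ± 0.21 (Gr1-positive 0.58 ± 0.21, limma adjusted p = 0.0629). Without the Gr1-negative day 2 array numbered 1 the adjusted p was 0.0583 for Tap1 and 0.15 for Psmb9. Without a day 4 array Psmb9 had an adjusted p of 0.0612, 0.0882 or 0.0571 (arrays numbered 1, 2 and 3).

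The 11 genes that passed in neither subset were Ifih1, Dhx58, Oas1a, Oasl1, Ifit1, Rsad2, Ifi35, Ifi27l2a, Cxcl10, Psmb8 and Usp18. For most of them the arrays of day 2 and day 4 overlapped in at least 1 subset. Rsad2 (viperin, which makes a chain-terminating nucleotide) read 10.14, 11.20 and 11.21 at day 1 in Gr1-negative cells, 10.37, 10.54 and 10.90 at day 2 and 10.40, 11.09 and 11.33 at day 4. These groups overlapped. With regard to the promoter letters, the median Gr1-negative rise was 0.954 over the 12 genes with the ISRE core (7 of which rose), 0.878 over the 16 genes with a window and no core (13 of which rose) and 0.999 over the 10 genes with no window at hand (7 of which rose). The Gr1-positive medians were 0.669, 0.773 and 0.679, with 6, 9 and 5 genes that rose.

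The difference between the subsets in the step from day 2 to 4 was tested as a difference of differences, a comparison chosen after the data had been seen. None of the 38 genes passed with limma (1 had an unadjusted p under 0.05), where 0.015% of all genes did. The median over the 38 genes was 0.164, a larger step in Gr1-negative cells, and it moved to 0.487 without the Gr1-positive day 2 array numbered 1 and to -0.044 without the Gr1-negative one. With the same-numbered arrays of a day as a block, none of the 38 passed either (0.958% of all genes).

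Between day 1 and day 2 little was called. In Gr1-negative cells Oas2 and Parp14 fell and no member rose, against 1.08% of all genes that fell and 3.8% that rose. The median difference was -0.294. Oas2, which makes the activator of RNase L, read 10.07, 10.27 and 10.60 at day 1 and 9.0, 9.06 and 9.27 at day 2. The arrays were apart, and the change was -1.20 ± 0.15 (limma adjusted p = 0.000519). It then rose by 1.42 ± 0.15 to 10.39, 10.40 and 10.81 at day 4 (limma adjusted p = 1.09e-05). Parp14 read 9.86, 10.11 and 10.38 at day 1 and 9.53, 9.48 and 9.79 at day 2, a change of -0.52 ± 0.13 (limma adjusted p = 0.0246). That call was lost without any 1 of 4 arrays, with an adjusted p of 0.11 without the day 1 array numbered 3, 0.0588 without the day 1 array numbered 2, 0.161 without the day 2 array numbered 2 and 0.0575 without the day 2 array numbered 1. In Gr1-positive cells no member passed with limma from day 1 to 2 (0.291% of all genes did, and 5 members had an unadjusted p under 0.05). Their median was -0.201, and it was 0.089 without the day 2 array numbered 1.

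After day 4 the Gr1-negative cells had lower levels of most of these genes, but few differences passed the test. From day 4 to 8, 3 of the 38 genes fell and none rose, where 7.34% of all genes fell and 3.17% rose. The median difference was -0.507 (range -0.962 to 0.836), against 0.004 for all genes. All arrays of day 8 were below all arrays of day 4 for 26 of the 38 genes, against 20.5% of all genes. The 3 genes were Dhx58, Dtx3l and Stat2. Dhx58 (LGP2), a regulator of the RNA sensors, went from 10.30, 10.61 and 10.47 to 9.62, 9.45 and 9.42. Its change was -0.96 ± 0.27 (limma adjusted p = 0.0328). Dtx3l went from 10.78, 10.87 and 10.82 to 10.02, 10.20 and 10.07, or -0.73 ± 0.22 (limma adjusted p = 0.0445), and Stat2 changed by -0.61 ± 0.16 (limma adjusted p = 0.0236). The number called depended on the fit: it was 21, all lower, when only the Gr1-negative arrays of both days set the spread. Leaving out 1 array gave counts between 0 and 2. The count was 1 (Stat2) without the day 8 array numbered 1, 2 without that numbered 3 (Ifih1 and Oasl1, both higher at day 8), and 0 without that numbered 2 or without any day 4 array.

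For 6 of the genes the day 8 mean was above that of day 4. Cxcl9 differed by 0.23 ± 0.36 (limma adjusted p = 0.714). Ifih1 (MDA5), a sensor of long double-stranded RNA, read 10.65, 10.74 and 10.94 at day 4 and 11.47, 11.53 and 10.74 at day 8. Oasl1 read 9.66, 10.24 and 10.28 and then 11.44, 11.26 and 10. Ifit1 read 10.46, 11.04 and 10.79 and then 11.38, 11.12 and 10.21. Rsad2 read 11.45, 11.44 and 10.49 at day 8, and Cxcl10 went from 11.9, 12.24 and 12.22 to 12.49, 12.73 and 12.16. In 5 of the 6 genes, all but Cxcl9, the day 8 arrays numbered 1 and 2 were above every day 4 array, and that numbered 3 was within or below the range of day 4, an order noticed after the values had been seen. Ifnb1, the gene for interferon beta, had the same order at day 8, with 8.93, 8.73 and 7.12, and read 7.25, 8.24 and 7.87 at day 4. The array numbered 3 also stood apart in 7 marker genes of fibroblasts, whose mean was 10.117 there against 7.457 and 7.696 on the arrays numbered 1 and 2. Postn, a matrix protein of fibroblasts, read 11.83 against 7.56 and 8.04. Their part in the result was not tested. From day 4 to 8 Ifih1 differed by 0.47 ± 0.15 (limma adjusted p = 0.0509) and Oasl1 by 0.84 ± 0.31 (limma adjusted p = 0.0884). The single Gr1-positive array of day 8 read 10.55 for Ifih1, 10.52 for Oasl1, 10.02 for Ifit1 and 7.41 for Ifnb1.

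Set against day 1, the Gr1-negative cells of day 8 had higher levels of 6 genes and lower levels of none, where 8.68% of all genes rose and 9.77% fell. The 6 were Cxcl9, Ifit2, Gbp3, Mx2, Ifih1 and Parp14. The median of the 38 was 0.213, and it was -0.081 without the day 1 array numbered 1. Cxcl9 rose by 3.14 ± 0.36 (limma adjusted p = 8.45e-06) and Gbp3 by 1.46 ± 0.28 (limma adjusted p = 0.000903), from 7.47, 8.45 and 8.57 to 9.51, 9.59 and 9.77. Ifit2 rose by 1.71 ± 0.51, to 10.02, 10.41 and 9.84 (limma adjusted p = 0.0244). For Ifit2 the adjusted p was 0.157 without the day 1 array numbered 1 and 0.0956 without the day 8 array numbered 2. The count was 2 (Cxcl9 and Gbp3) without the day 8 array numbered 2 and 10 without the day 1 array numbered 3. In Gr1-positive cells, where day 8 had no replicate, day 4 was set against day 1: 11 of the 38 rose and none fell, where 16.2% of all genes rose and 9.42% fell. The median was 0.43, and all day 4 arrays were above all day 1 arrays for 25 genes (21.9% of all genes). The largest rises were those of Cxcl9 (2.67 ± 0.36, limma adjusted p = 1.96e-05), Ifit2 (2.36 ± 0.51, limma adjusted p = 0.00175) and Ifit3 (1.71 ± 0.46, limma adjusted p = 0.00926). Ifit3 read 9.25, 10.64 and 10.20 at day 1 and 11.73, 11.75 and 11.73 at day 4. Without the day 1 array numbered 1, Ifit3 had an adjusted p of 0.0708 and the count was 7.

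Between the subsets on the same day, most members were lower in Gr1-negative than in Gr1-positive cells by a small amount. Gene by gene, the sign was negative for 31 of the 38 at day 1 (median -0.223), 36 at day 2 (median -0.303) and 27 at day 4 (median -0.13). The median of all genes was 0 at day 1, -0.027 at day 2 and -0.033 at day 4. Many of the 38 genes moved together over the arrays, so the counts are not 38 separate observations. The single gene that passed was Oas2 at day 2, where 0.682% of all genes were lower in Gr1-negative cells. Its Gr1-negative arrays read 9.0, 9.06 and 9.27 and its Gr1-positive arrays 9.77, 9.99 and 10. The difference was -0.80 ± 0.15 with a 95% interval of -1.13 to -0.48 (limma adjusted p = 0.0081), and the adjusted p was 0.0542 without the Gr1-negative array numbered 2. Without the Gr1-positive array numbered 1, 3 genes passed at day 2 (Zbp1, Oas2 and Oas3). At day 1 no member passed with limma (0.858% of all genes did, and 1 member had an unadjusted p under 0.05), and the median was 0.028 without the Gr1-negative array numbered 1. At day 4 no member passed with limma (0.717% of all genes did, and 0 members had an unadjusted p under 0.05). At day 8, with 1 Gr1-positive array, no member passed with limma (2.03% of all genes did, and 5 members had an unadjusted p under 0.05), and Ifih1 passed without the Gr1-negative array numbered 3. For Stat2 the 95% interval of the difference was -0.37 to 0.30 at day 1, -0.48 to 0.19 at day 2 and -0.58 to 0.09 at day 4 in this fit without pairing.

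**Figure D4:**
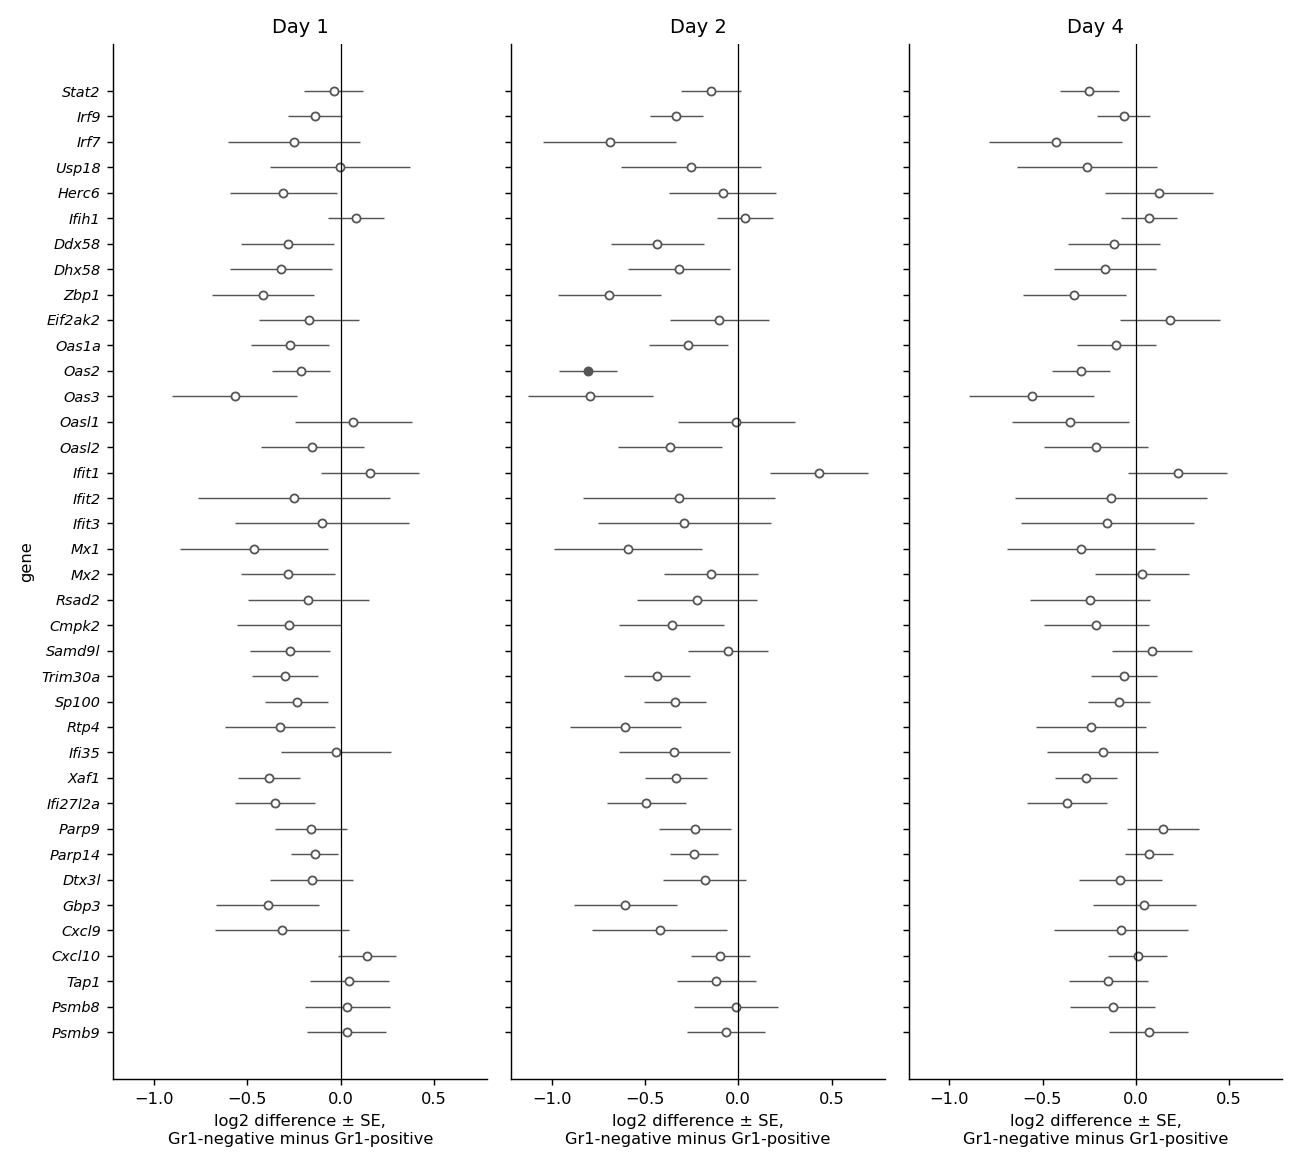
Difference between the subsets (Gr1-negative minus Gr1-positive, log2 difference ± SE on the x axis) for each of the 38 genes (y axis) at days 1, 2 and 4, with filled points for genes at an adjusted p under 0.05 without the pairing. Most points lie left of 0 (31, 36 and 27 of the 38), and the single filled point is Oas2 at day 2.

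Arrays of the same day and number deviated together, so the subset differences were also fitted with day and number as a block. At day 1, 4 genes were then lower in Gr1-negative cells (Ifi27l2a, Oas3, Xaf1 and Zbp1), where 0.747% of all genes were lower. At day 2, 13 genes were lower (2.15% of all genes) and Ifit1 was higher (9.76% of all genes). Zbp1, a sensor of Z-form nucleic acid, gave -0.69 with a 95% interval of -0.89 to -0.49 at day 2 in this fit (limma adjusted p = 0.000507), and Irf7 gave -0.69, with an interval of -0.96 to -0.42 (limma adjusted p = 0.00337). At day 4, Ifi27l2a, Oas3 and Oasl1 were lower (0.913% of all genes). At day 8 the block rests on a single pair of arrays, so its calls are not read here. Stat2 gave -0.25 at day 4 with an interval of -0.48 to -0.01 and was lower in all 3 pairs, but did not pass (limma adjusted p = 0.244). Oas3 and Ifi27l2a were lower in the block fit at days 1, 2 and 4. Pair by pair, the number of members that were lower in the Gr1-negative array was 36, 35 and 11 of 38 at day 1, 22, 37 and 36 at day 2 and 33, 30 and 20 at day 4. The pair numbered 3 of day 1, that numbered 1 of day 2 and that numbered 3 of day 4 thus differ from the other pairs of their days. The median difference of the day 4 pair numbered 3 was -0.031, against -0.17 and -0.174 in the other day 4 pairs. Between day 1 and day 4, the subset difference changed for no member with limma, with the block or without it (0.0953% of all genes passed without it and 0.878% with it, and 0 members had an unadjusted p under 0.05 without it).

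The other genes of the pathway came from a list of 118, of which 100 were measured. From day 2 to 4, 40 of the 100 rose and 2 fell in Gr1-negative cells, where 8.15% of all genes rose and 6.69% fell. In Gr1-positive cells 37 rose and 4 fell, against 11.8% and 7.44% of all genes. In Gr1-negative cells the largest rises were those of 2 GTPase genes and an IFIT gene, and in Gr1-positive cells Ifng, given further on, came before them. Gbp4, a guanylate-binding protein, rose by 2.81 ± 0.36 in Gr1-negative cells (limma adjusted p = 3.59e-05) and by 2.38 ± 0.36 in Gr1-positive cells (limma adjusted p = 0.000123). Iigp1, an immunity-related GTPase that acts against parasites in vacuoles, read 5.85, 6.49 and 6.15 at day 2 and 9.22, 8.38 and 8.60 at day 4 in Gr1-negative cells. It rose there by 2.57 ± 0.31 (limma adjusted p = 2.29e-05) and by 2.47 ± 0.31 in Gr1-positive cells (limma adjusted p = 2.54e-05). Ifit3b rose by 2.66 ± 0.49 and 2.63 ± 0.49. The 2 that fell in Gr1-negative cells were Ifitm1, a membrane protein that blocks viral entry (-1.10 ± 0.28, limma adjusted p = 0.0108), and Ifnab (-0.26 ± 0.08, limma adjusted p = 0.037). Both calls were lost without single arrays: the highest adjusted p was 0.0635 for Ifitm1 (without the day 2 array numbered 3) and 0.145 for Ifnab (without the day 4 array numbered 1). The 4 that fell in Gr1-positive cells were Ifitm6 (-0.97 ± 0.30), Ptpn2 (-0.89 ± 0.16), Jak2 (-0.61 ± 0.20) and Tbk1 (-0.36 ± 0.10), which encode a membrane protein, a phosphatase that damps Stat signals, a kinase of the interferon gamma receptor and a kinase that activates Irf3. From day 4 to 8 in Gr1-negative cells 3 of the 100 rose and 9 fell, close to the 3.17% and 7.34% of all genes, the largest falls being those of Ifit3b (-1.91 ± 0.49, limma adjusted p = 0.0212), Slfn1 (-1.28 ± 0.38, limma adjusted p = 0.0383) and Tlr3 (-1.09 ± 0.25, limma adjusted p = 0.015), a sensor of double-stranded RNA. Without the day 8 array numbered 1 the adjusted p was 0.075, 0.0742 and 0.0822 for these genes. The 3 that rose were Trim25 (0.60 ± 0.11), Ifnk (0.40 ± 0.11) and Stat3 (0.34 ± 0.08). From day 1 to 8 in Gr1-negative cells 19 of the 100 rose and 7 fell (8.68% and 9.77% of all genes), with Iigp1 (2.03 ± 0.31), Ifng (2.02 ± 0.35) and Gbp4 (2.00 ± 0.36) at the top, and from day 1 to 4 in Gr1-positive cells 31 rose and 13 fell (16.2% and 9.42% of all genes).

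Among the interferons themselves, 16 of 21 listed genes were measured, and 1 rose between day 2 and day 4: Ifng, the gene for interferon gamma. Its Gr1-negative signals were 6.75, 7.28 and 6.80 at day 1, 6.82, 6.84 and 6.52 at day 2, 8.36, 8.90 and 7.50 at day 4 and 8.83, 9.08 and 9.0 at day 8. Its Gr1-positive signals were 6.72, 6.49 and 6.73 at day 1, 6.73, 6.70 and 6.78 at day 2, 9.40, 10.55 and 8.55 at day 4 and 9.35 at day 8. Days 1 and 2 were low in both subsets, and days 4 and 8 were above them with no overlap. The rise from day 2 to 4 was 1.53 ± 0.35 in Gr1-negative cells (limma adjusted p = 0.00493) and 2.77 ± 0.35 in Gr1-positive cells (limma adjusted p = 2.55e-05). Ifnb1 passed the test in none of the comparisons, and its differences from day 2 to 4 were -0.26 ± 0.39 and -0.39 ± 0.39. Of the receptors, Ifngr1 rose by 0.49 ± 0.11 in Gr1-negative cells (limma adjusted p = 0.00478) and by 0.32 ± 0.11 in Gr1-positive cells (limma adjusted p = 0.0483), the latter with an adjusted p of 0.216 without the day 2 array numbered 1. Ifnar1 was between 10.66 and 11.44, Ifnar2 between 11.78 and 12.08 and Ifngr2 between 12.04 and 12.38 on all arrays.

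Markers of several other cell types moved in the same step, in which 8.15% of all genes rose in the Gr1-negative subset and 11.8% in the Gr1-positive. Of 12 measured genes of T and NK cells, the main makers of interferon gamma, 6 rose from day 2 to 4 in the Gr1-negative subset and 11 in the Gr1-positive. The mean of the list was 7.056 (arrays 6.866 to 7.180) at day 2, 8.203 (7.763 to 8.805) at day 4 and 8.912 (8.594 to 9.442) at day 8 in Gr1-negative cells. In Gr1-positive cells it was 6.590 (6.512 to 6.646) at day 2, 9.005 (8.176 to 9.836) at day 4 and 8.723 at day 8. Of 8 measured genes of plasmacytoid dendritic cells, the specialised makers of type I interferon, 1 rose in Gr1-negative cells and 8 in Gr1-positive cells. That list went from 8.272 (8.166 to 8.333) to 9.489 (9.205 to 9.811) in Gr1-positive cells and from 8.303 (8.261 to 8.359) to 8.619 (8.552 to 8.703) in Gr1-negative cells. Of 10 genes of conventional dendritic cells, 7 rose in the Gr1-negative subset and 6 in the Gr1-positive. The mean of that list at day 2 was 8.664 (8.409 to 8.838) in Gr1-negative and 7.42 (7.216 to 7.591) in Gr1-positive cells. Of 7 fibroblast genes 2 rose in the Gr1-negative subset and 0 in the Gr1-positive, and the list mean went from 6.843 (6.732 to 7.009) to 8.171 (7.373 to 8.83) and from 6.914 (6.776 to 7.073) to 7.453 (7.205 to 7.902). Of 13 neutrophil genes 2 fell and 1 rose in the Gr1-negative subset, where 6.69% of all genes fell. In the Gr1-positive subset 3 fell and 1 rose, where 7.44% of all genes fell. The list mean there went from 7.659 (7.575 to 7.718) to 7.188 (6.97 to 7.461). No marker is at 0 on this scale, which has a background level. The part of these cells in the levels of the 38 genes was not tested.

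**Figure D5:**
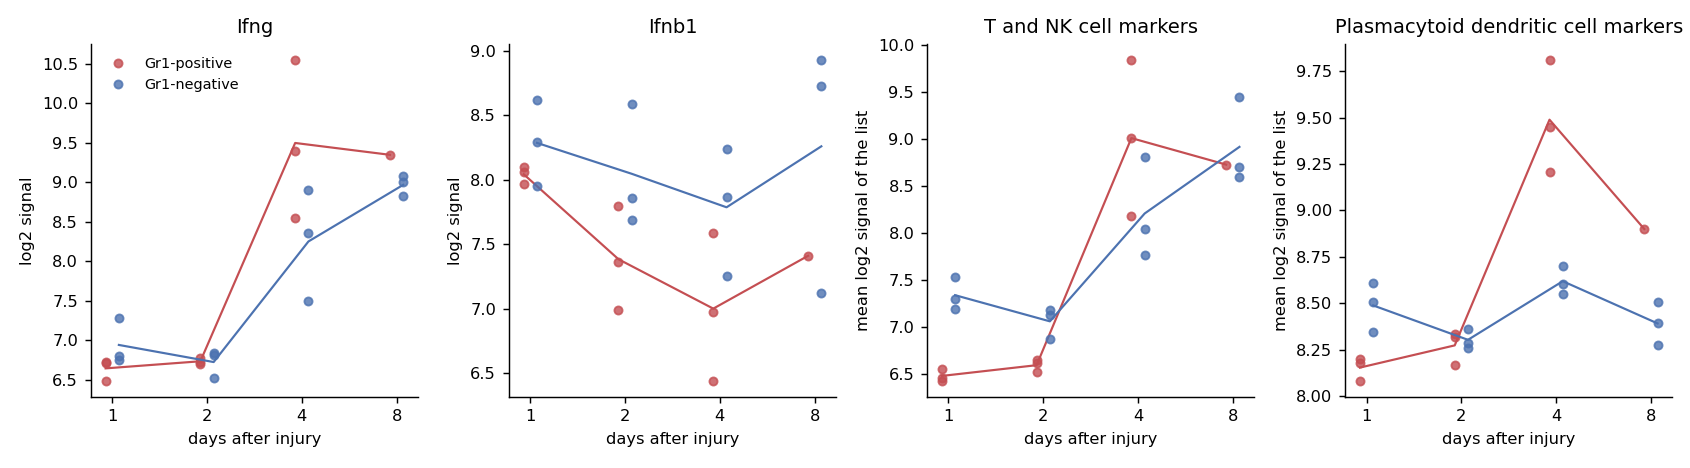
Log2 signal per array (y axis) against days after injury (x axis) for Ifng and Ifnb1 and for the means of the T and NK cell and plasmacytoid dendritic cell marker lists, with 1 point per array and lines through the group means. Ifng and the T and NK list are low at days 1 and 2 and higher at days 4 and 8, the plasmacytoid list is highest in Gr1-positive cells at day 4 (9.205 to 9.811), and Ifnb1 has no such step.

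The 38 genes did not all follow one course. Each was compared with the mean of the other 37 over the 22 arrays, which fall into 8 groups, so that a correlation describes these arrays and carries no p. Mx1 was most like the others (Pearson r 0.97). The least alike were Ifi35 (0.333), Oasl1 (0.366), Ifih1 (0.369), Ifi27l2a (0.532), Cxcl10 (0.545) and Ifit1 (0.552). All 6 are among the 11 genes that passed in neither subset from day 2 to 4. The mean they were compared with rose in that same step, so this overlap is not a separate observation. Outside the list, the 10 genes most like the mean of the 38 were Irgm1 (0.975), Ifi213 (0.969), Gbp7 (0.963), Ifi206 (0.956), Gm12250 (0.955), I830077J02Rik (0.933), Cfb (0.933), Tpst1 (0.931), Tor3a (0.928) and Trafd1 (0.927). Irgm1, Gbp7 and Tor3a were on the pathway list and the others were not. Over 19900 other genes the median r was -0.147, and 169 had an r over 0.8.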

How the data were processed

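Signals came from an Affymetrix mouse gene array, labelled from total RNA of sorted cells. The deposited values are log2 signals that the authors summarized with RMA, per the submitters' processing notes, with no version given. The table holds 35556 probe sets, of which 21789 name 1 gene, and 1621 that name several were left out. Entrez numbers matched 21698 to RefSeq names (GRCm38.p6). For 999 genes with several probe sets the one of highest mean signal entered, giving 19938 genes. Values run from 2.3432 to 13.949, array medians from 7.0168 to 7.1826, and no 2 arrays hold the same values (smallest root mean square difference 0.2329). The number of arrays limits the precision.

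Tests used limma 3.58.1 (R 4.3.3): 1 model with a term for each group, fitted to all 22 arrays with moderated variances, and Benjamini-Hochberg adjustment over 19938 genes within each of 13 comparisons, called at an adjusted p under 0.05. SE is that of the fit. The labels call the arrays of a group biological replicates without naming animals or pools, so p-values measure the spread between these arrays. Shared replicate numbers were checked on the genes in the upper part of the signal range (from the median gene upward): within a day, the deviations of all 9 same-numbered pairs correlated over 0.1 (0.246 to 0.864) and each array matched its own number best, so day and number served as a block for subset differences. Over all genes 8 of the 9 were over 0.1 (0.098 to 0.646). Ifi44l, an interferon-stimulated gene of the pathway list, differed by such pairs. It read 10.83 and 10.7 on the day 1 pair numbered 2, and 10.54 and 10.71 on the day 4 pair numbered 1. The pairs numbered 1 of days 1 and 2 read from 7.22 to 7.76, and all other arrays from 5.62 to 5.98. The cause was not tested.

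Values were given for Stat2, Irf9, Irf7 and, in each comparison, the 3 members with the largest called difference in each direction. Other members were given by counts and differences, pathway genes by counts with the 3 largest called, and motifs were searched on both strands. The members, lists and markers were chosen with earlier results of these data known. The fit was tested on simulated data. Alternatives were a repeated quantile normalization, median centring, the mean of probe sets, dim genes left out, the compared arrays alone, the block, and leaving out each array.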

Additional observations from a re-analysis of the deposited data

How the results depend on the processing

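No difference of a named gene changed sign among the called results under any alternative run. From day 2 to 4, the counts of 27 and 20 genes stayed within 1.5 times under a repeated quantile normalization, median centring, the mean of probe sets, without dim genes, with the compared arrays alone and with a replicate block of the number. Leaving out each array in turn gave 18 to 27 genes in Gr1-negative and 11 to 24 in Gr1-positive cells. Without both day 2 arrays numbered 1, a choice made after the data were seen, the Gr1-positive count was 13. With the compared arrays alone, the count was 21 from day 4 to 8 and 1 from day 1 to 2 in Gr1-negative cells, and 19 from day 1 to 4 in Gr1-positive cells. With dim genes left out the count from day 4 to 8 was 5. Across days, 7 of 15 same-numbered pairs correlated over 0.1 and 5 of 15 matched their own number best, so the number does not pair most arrays. The arrays numbered 1 did match best between days 1 and 2 and between days 2 and 4 in both subsets. Their correlations were 0.268 to 0.407 on genes from the median signal upward, against -0.383 between days 4 and 8 in Gr1-negative cells. The replicate block of the number gave 18 from day 4 to 8 and 12 from day 1 to 8 in Gr1-negative cells, and 1 (Oas2) from day 1 to 2 in Gr1-positive cells. That last count was 1 (Psmb9) without both day 2 arrays numbered 1. The replicate block of day and number gave 4, 14, 3 and 4 genes between the subsets at days 1, 2, 4 and 8, the last from a single pair of arrays and not read as a test, and it left both changes of the subset difference at 0. Leaving out 1 array gave 0 to 0 genes between the subsets at day 1, 0 to 3 at day 2, 0 to 0 at day 4 and 0 to 1 at day 8. Within Gr1-negative cells it gave 1 to 2 from day 1 to 2, 0 to 2 from day 4 to 8 and 2 to 10 from day 1 to 8, and within Gr1-positive cells 0 to 0 from day 1 to 2 and 7 to 13 from day 1 to 4. The cause of these shifts was not tested. Probe signals have a background level, which compresses differences of dim genes.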

Other observations

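Some interferon-stimulated genes outside the 38 fell over time. In Gr1-negative cells Slfn4, a Schlafen family gene of myeloid cells, read 10.86, 11.42 and 11.39 at day 1, 9.12, 9.41 and 10.03 at day 2 and 9.72, 9.22 and 8.13 at day 8. It fell by 2.20 ± 0.40 from day 1 to 8 (limma adjusted p = 0.000651). Ifitm1 fell by 1.83 ± 0.28 (limma adjusted p = 0.000135) and Ifitm6 by 1.48 ± 0.30 (limma adjusted p = 0.00176) over the same time, and in Gr1-positive cells from day 1 to 4 Ifitm1 fell by 1.72 ± 0.28 (limma adjusted p = 0.000118) and Ifitm6 by 1.36 ± 0.30 (limma adjusted p = 0.0021). Between the subsets at day 2, Ifitm6 was lower in Gr1-negative cells by -1.90 ± 0.30 (limma adjusted p = 0.00251). These 3 genes are the largest called falls of the pathway list from day 1 to 8, among 7 of 100 that fell and 19 that rose, where 9.77% of all genes fell and 8.68% rose.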
